A study of Mus musculus with 6 samples.

Results

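The integrated stress response core was taken as 10 genes listed by symbol, chosen with earlier results of these data known: Atf4, Atf5, Ddit3, Ppp1r15a, Trib3, Asns, Chac1, Sesn2, Eif2ak3 and Eif2ak4. All 10 were found among the 33006 genes of the count tables, and all 10 were among the 12924 genes with enough reads to be tested. They were measured in RNA-seq libraries of primary endothelial cells from the lungs of C57BL/6 mice, grown in culture to 80% confluence. Cells of the control group received water and cells of the H2O2 group received 300 uM hydrogen peroxide (H2O2), both for 6 hours, with 3 libraries per group. The labels name no transgene, knockout or other agent in either group, and do not say whether the libraries of a group came from separate cultures or animals. So p-values reflect library-to-library spread alone, and that spread may be technical.

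The integrated stress response is set off when a kinase phosphorylates the alpha subunit of the translation factor eIF2, which slows protein synthesis in general and lets a few mRNAs, Atf4 above all, be translated more. Each kinase reads a different stress: PERK (Eif2ak3) misfolded protein in the endoplasmic reticulum, GCN2 (Eif2ak4) uncharged tRNA, HRI (Eif2ak1) haem shortage and mitochondrial stress, and PKR (Eif2ak2) double-stranded RNA. The transcription factor ATF4 then switches on genes for amino acid supply, for the feedback that ends the response and, with CHOP (Ddit3), for cell death. The libraries measure mRNA, and neither eIF2 alpha phosphorylation nor protein was measured.

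H2O2 replicate 3 stood apart from the other libraries of its group. Compared over genes with H2O2 replicates 1 and 2, its counts gave chi-square values of 9.16 and 11.71 for each degree of freedom, while the other pairs within a group gave 1.63 to 2.94. It also had the lowest share of reads with no feature, 4.76% against 5.07% to 5.46%. Of the H2O2 libraries it lay nearest to the controls for Atf4, Ddit3, Asns and Eif2ak4, and results without it are given beside the counts.

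With H2O2, 5 of the 10 genes fell and 0 rose: Ppp1r15a, Asns, Ddit3, Trib3 and Atf4, by 1.09-fold to 1.44-fold. Atf5, Chac1, Sesn2, Eif2ak3 and Eif2ak4 did not pass the test. Calls come from edgeR's quasi-likelihood test fitted across all tested genes, with Benjamini-Hochberg adjustment and a threshold of 0.05. It called 20.5% of all tested genes, 10.8% lower and 9.70% higher. These shares were not matched to the members for abundance, which bears on calls. At an unadjusted p under 0.05 the count of rises among the 10 was also 0, and it was 0 by DESeq2's test and by limma-voom. The median log2 fold change (H2O2 over control) was -0.12 over the 10 genes and -0.004 over all tested genes. Without H2O2 replicate 3 the same 5 genes were called, with log2 fold changes of -0.53 for Ppp1r15a, -0.34 for Asns, -0.32 for Ddit3, -0.22 for Trib3 and -0.14 for Atf4. The remaining members were not called without it either, and Eif2ak4 stood at -0.16 (adjusted p = 0.11). In bulk RNA, fewer cells of a type and less RNA per cell cannot be told apart.

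**Figure D1:**
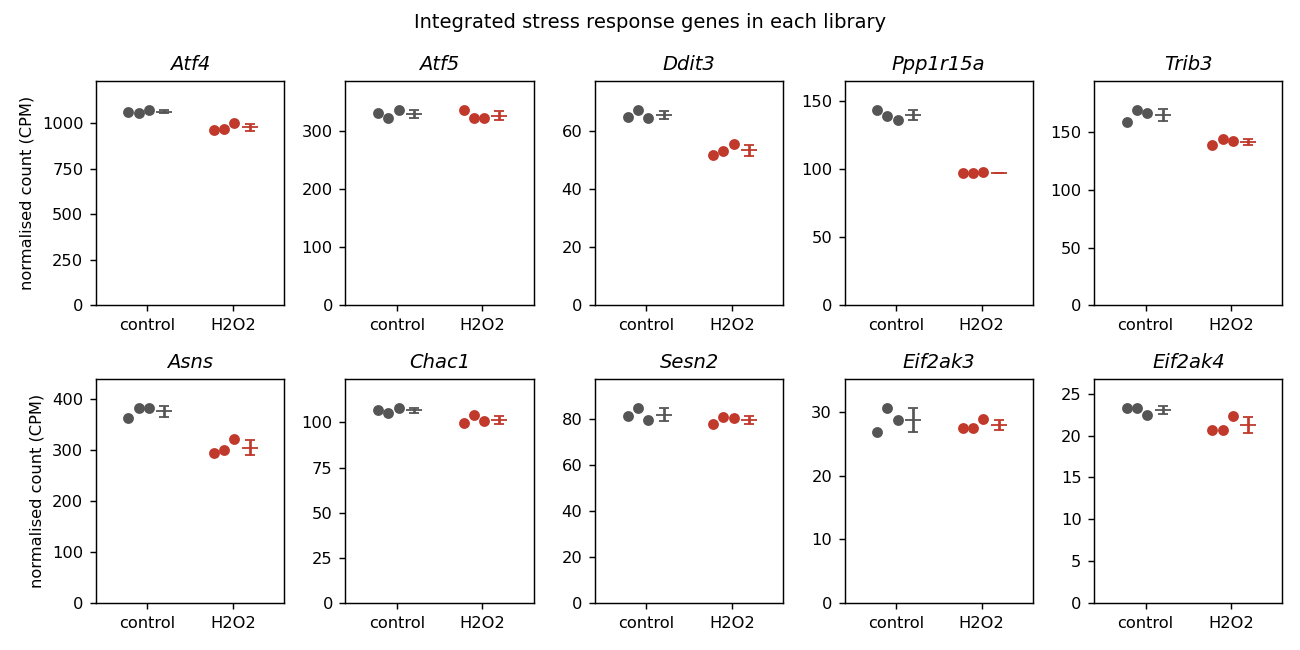
Normalised read counts (CPM, vertical axes from 0) of the 10 genes in each library, with points for libraries and a bar for the mean and SD of 3 libraries per group. Points of Ppp1r15a, Ddit3, Asns, Trib3 and Atf4 lie lower with H2O2 without overlap, and those of Atf5, Sesn2 and Eif2ak3 overlap.

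Control libraries held 22455388 to 25626849 gene counts and H2O2 libraries 26042296 to 27618679, without overlap. Whether this difference in depth bears on the changes was not tested. Counts of single members ran from 502 (Eif2ak4) to 27402 (Atf4). Of 10 endothelial markers, 9 were tested, and Plvap, the most abundant, averaged 1149 CPM without and 1296 CPM with H2O2. The tight junction gene Cldn5 was near 0 (0.294 and 0.345 CPM). Summed over the 10 markers the level was 4995 to 5134 CPM in controls and 5344 to 5460 CPM with H2O2, and 4 of the 9 tested rose (Emcn, Plvap, Tek and Pecam1). By edgeR's test 0 of them fell, as at an unadjusted p under 0.05 and by DESeq2's test. The 7 lung epithelial markers summed to at most 0.193 CPM in any library, with 4 of them at 0 in all 6 libraries. Of the 7 leukocyte markers only Cd68 was tested, and Ptprc, which marks leukocytes in general, was at or near 0 (0.00 and 0.0128 CPM). The summed leukocyte level was 157 to 164 CPM in controls and 162 to 169 CPM with H2O2, nearly all of it Cd68. The 8 fibroblast and mural markers summed to 29.2 to 31.7 CPM in controls and 27.3 to 30.9 CPM with H2O2, led by Dcn. The part of the higher endothelial markers in the results below was not tested.

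Among the transcription factors, Atf4 was the most abundant member. It lies on chromosome 15 at 80255184 to 80257541 (mm10, GENCODE M21, plus strand). Its level in the control libraries was 1062, 1056 and 1070 CPM, and in the H2O2 libraries 963, 969 and 1000 CPM. Every H2O2 library lay below every control. CPM here is the read count after TMM scaling between libraries. Atf4 fell by 0.12 on the log2 scale (SE 0.0267, adjusted p = 0.0016), a 1.09-fold drop.

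Ddit3 encodes CHOP, a factor that pairs with other bZIP proteins and promotes cell death under lasting stress. It lies on chromosome 10 at 127290774 to 127296288 (plus strand). Its control libraries stood at 65.0, 67.3 and 64.8 CPM and its H2O2 libraries at 51.9, 53.1 and 55.6 CPM, again with no overlap. The log2 fold change was -0.30 (SE 0.0410, adjusted p = 6.1e-06). Exons of genes on the opposite strand, among them the tRNA synthetase gene Mars, cover 9.10% of the exon bases of Ddit3. The strand setting of the counting was not given in the sources used here. How reads of such shared stretches were counted is thus not known for any member. Reads that HTSeq classed as ambiguous between genes were left out of the counts. Mars fell too (-0.17), and whether shared reads bear on the value of Ddit3 was not tested.

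Atf5, the nearest relative of Atf4 among the members and like it controlled at translation, did not pass. It lies on chromosome 7 at 44812256 to 44816658 (minus strand). Exons of Nup62 and Il4i1 on the opposite strand cover 4.11% of its exon bases. It stood at 331, 321 and 335 CPM in controls and at 335, 322 and 321 CPM with H2O2. The groups overlapped, and the log2 fold change of -0.01 had a 95% interval of -0.08 to 0.05 (adjusted p = 0.79).

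Ppp1r15a, a feedback gene of the response, changed most among the members. It encodes GADD34, which brings protein phosphatase 1 to eIF2 alpha and so ends the response. The gene lies on chromosome 7 at 45522916 to 45526268 (minus strand). Its control libraries stood at 143, 139 and 136 CPM. Its H2O2 libraries stood at 96.8, 96.8 and 97.4 CPM. The SD was 3.34 CPM in controls and 0.376 CPM with H2O2, both small beside the gap between the groups. An SD of 3 libraries is itself imprecise. The log2 fold change was -0.53 (SE 0.0337, adjusted p = 1e-11), or 1.44-fold lower, and by p-value it ranked 14th among the 12924 tested genes. By the size of the fall its rank among the same genes was 147. Its constitutive paralog Ppp1r15b, which does the same task without induction, averaged 150 ± 5.81 CPM without and 151 ± 7.21 CPM with H2O2 (SD, n = 3 each). Its log2 fold change was 0.00, with a 95% interval of -0.07 to 0.08 (adjusted p = 0.96).

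The promoter of Ppp1r15a is shown because this gene changed most among the members. It covers the 250 bases before the RefSeq start site (GRCm38.p6, chr7:45526269-45526518, minus strand). Capitals mark TGACGTCA, the cyclic AMP response element (CRE), a palindrome bound by ATF and CREB family factors, which starts 12 bases before the start site.
Ppp1r15a promoter: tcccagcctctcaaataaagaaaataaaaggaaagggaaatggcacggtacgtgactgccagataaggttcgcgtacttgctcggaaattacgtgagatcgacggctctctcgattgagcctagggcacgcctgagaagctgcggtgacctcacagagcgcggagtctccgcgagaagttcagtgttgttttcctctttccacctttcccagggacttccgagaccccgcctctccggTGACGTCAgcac
On either strand, this element was found in 1.79% of 32851 promoter windows of 300 bases in the RefSeq table, and Ppp1r15a was the only member with it. A match of letters is a description and does not show that a factor binds there.

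Trib3 encodes a pseudokinase that binds ATF4 and restrains it. It lies on chromosome 2 at 152337422 to 152344032 (minus strand). It stood at 159, 169 and 167 CPM in controls and at 139, 144 and 142 CPM with H2O2, with no overlap. The log2 fold change was -0.22 (SE 0.0332, adjusted p = 2.1e-05). Of its paralogs, Trib1 fell by 0.14 (SE 0.0362, adjusted p = 0.0066), and Trib2 stood at -0.04 with a 95% interval of -0.12 to 0.04 (adjusted p = 0.54). Without control replicate 2 the call of Trib1 ended (adjusted p = 0.05, against 0.0066 with all libraries).

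**Figure D2:**
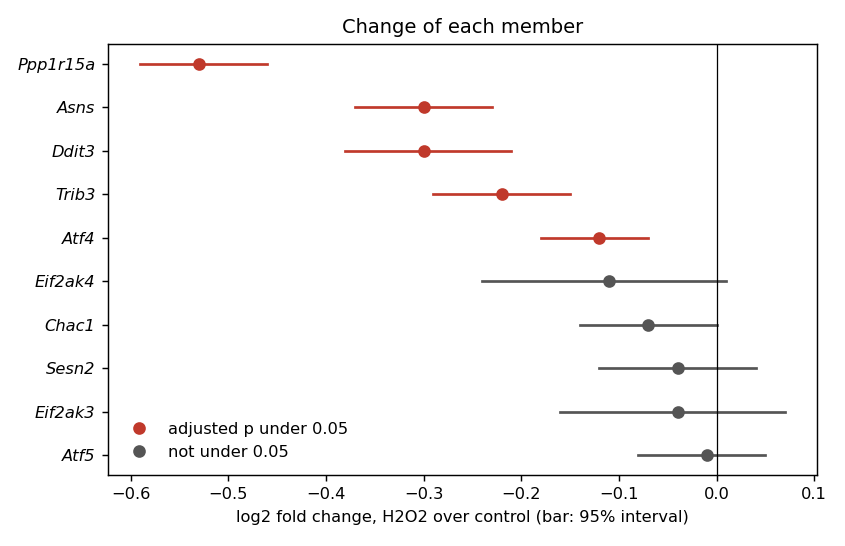
Log2 fold change of each gene (horizontal axis, H2O2 over control) with its 95% interval from edgeR's fit of 3 libraries per group. Red points passed the threshold on the adjusted p, and Ppp1r15a at -0.53 lies apart from Asns and Ddit3 at -0.30.

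Asns, Chac1 and Sesn2 are outputs of the response. Asns encodes asparagine synthetase and lies on chromosome 6 at 7675169 to 7693254 (minus strand). It stood at 363, 382 and 381 CPM in controls and at 293, 299 and 321 CPM with H2O2. H2O2 replicate 3 was the nearest to the controls and still below all of them. The log2 fold change was -0.30 (SE 0.0333, adjusted p = 1.6e-07).

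Chac1 encodes an enzyme that degrades glutathione and lies on chromosome 2 at 119351229 to 119354381 (plus strand). It stood at 107, 105 and 108 CPM in controls and at 99.4, 104 and 101 CPM with H2O2. The H2O2 libraries were all below the controls, yet the gap was small and did not pass the test (log2 fold change -0.07, 95% interval -0.14 to 0.00, adjusted p = 0.16). Short transcripts in general lay slightly higher with H2O2: the median log2 fold change was 0.046 among genes of at most 2021 exon bases and -0.024 to -0.010 in the 3 longer groups of the same size. Ddit3 (890 exon bases), Chac1 (1637), Atf4 (1725) and Atf5 (1993) belong to the short genes. With a per-library offset for exon length and base composition (GC content), Chac1 was called lower (-0.13, adjusted p = 0.0071), while Ddit3 stood at -0.38, Atf4 at -0.16 and Atf5 at -0.07, the last still without a call.

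Sesn2 encodes sestrin 2, which restrains the growth kinase mTORC1 and is also a p53 target. It lies on chromosome 4 at 132492032 to 132510501 (minus strand). It stood at 81.3, 84.6 and 79.3 CPM in controls and at 77.6, 80.6 and 80.3 CPM with H2O2, with overlap. The log2 fold change was -0.04 (95% interval -0.12 to 0.04, adjusted p = 0.50). Of its paralogs, Sesn1 averaged 8.66 CPM in controls and did not pass (log2 fold change 0.21, adjusted p = 0.088), although it was called with the offset just named (0.24, adjusted p = 0.044). Sesn3 was nearly silent, with 0.507 CPM in the control group and 0.741 CPM after H2O2.

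The promoter sites of Asns, Chac1 and Trib3, textbook ATF4 targets, are shown because no other member's window held the letters described next. Of these genes Asns and Trib3 fell and Chac1 did not pass. Ppp1r15a, Ddit3 and Atf4 fell without such a match in their windows. Capitals mark the letters TGATGNAA or their reverse complement, the core of the C/EBP-ATF response element (CARE) that ATF4 binds with C/EBP partners. Positions are from RefSeq start sites (GRCm38.p6). In Chac1 the match begins 193 bases before the start site. The printed stretch (chr2:119350992-119351228, plus strand, 237 bases) ends before the first start site of either annotation. In Asns it begins 23 bases before the RefSeq start site (30 bases shown, chr6:7693214-7693243, minus strand), within the GENCODE gene. In Trib3 it begins at base 15 of the RefSeq transcript and lies before the start of the GENCODE gene (30 bases shown, chr2:152344028-152344057, minus strand).
Chac1 promoter: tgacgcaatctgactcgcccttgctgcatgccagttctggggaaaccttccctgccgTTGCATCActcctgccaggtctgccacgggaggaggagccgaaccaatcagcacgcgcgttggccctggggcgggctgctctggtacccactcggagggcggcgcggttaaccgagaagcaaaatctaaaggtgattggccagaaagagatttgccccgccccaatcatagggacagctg
Asns site: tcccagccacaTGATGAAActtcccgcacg
Trib3 site: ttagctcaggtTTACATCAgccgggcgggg
These letters were found on either strand in 3.97% of the 32851 windows, which span 250 bases before to 50 after each start site. The windows of Atf4, Atf5, Ddit3, Ppp1r15a, Sesn2, Eif2ak3 and Eif2ak4 did not hold them, which says nothing of sites elsewhere in those genes. Neither did any member's window hold the endoplasmic reticulum stress element (ERSE, CCAAT and CCACG with 9 bases between them), found in 0.119% of windows.

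The kinases that start the response showed no called change. Eif2ak3, which encodes PERK, lies on chromosome 6 at 70844515 to 70905245 (plus strand). Exons of Gm43292 on the opposite strand cover 10% of its exon bases, the largest such share among the members. It stood at 26.9, 30.7 and 28.8 CPM in controls and at 27.5, 27.5 and 28.9 CPM with H2O2 (log2 fold change -0.04, 95% interval -0.16 to 0.07, adjusted p = 0.66). Eif2ak4, which encodes GCN2, lies on chromosome 2 at 118388618 to 118475234 (plus strand). It stood at 23.3, 23.3 and 22.5 CPM in controls and at 20.7, 20.7 and 22.4 CPM with H2O2. The lowest control and the highest H2O2 library lay close together, and it did not pass (-0.11, 95% interval -0.24 to 0.01, adjusted p = 0.20). The remaining kinases of the family, Eif2ak1 (0.00, 95% interval -0.09 to 0.09) and Eif2ak2 (-0.05, 95% interval -0.12 to 0.01), did not pass either. The intervals leave room for falls of the size seen for Atf4 in Eif2ak3 and Eif2ak4.

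In all, 7 members had every H2O2 library below every control, against 18.2% of all tested genes (34.6% in either direction), and 0 had every H2O2 library above, against 16.5%. With each of 3 other scaling factors this count was 6. The shares of all tested genes were not matched to the members for abundance here either.

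Levels of different genes can be compared only per length, as CPM per kb of exon. On that scale controls ran from 616 ± 4.14 for Atf4 to 3.17 ± 0.0638 for Eif2ak4 (mean ± SD, n = 3 each). Between them stood Asns (174 ± 5.04), Atf5 (165 ± 3.62), Trib3 (81.4 ± 2.69), Ddit3 (73.8 ± 1.58) and Chac1 (65.2 ± 0.902). Then followed Ppp1r15a (47.5 ± 1.14), Sesn2 (23.5 ± 0.767) and Eif2ak3 (5.95 ± 0.397). Of these neighbours, only Asns and Atf5 overlapped between libraries. With H2O2 the order changed at 2 places: Atf5 (164 ± 3.86) stood above Asns (141 ± 6.97) without overlap, and Chac1 (62.0 ± 1.46) stood above Ddit3 (60.2 ± 2.11) with overlap. Among the 4 kinases the order in both groups was Eif2ak2, Eif2ak1, Eif2ak3 and Eif2ak4 with no overlap between neighbours, at 48.9, 12.5, 5.95 and 3.17 CPM per kb in controls.

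**Figure D3:**
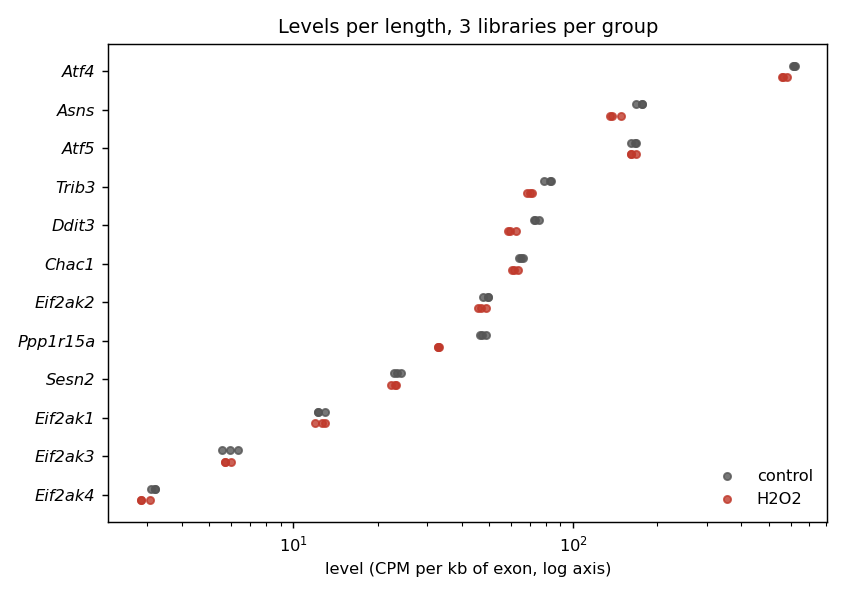
Level of each member and of the kinase genes Eif2ak1 and Eif2ak2 (CPM per kb of exon, log axis), with 1 point per library. Atf4 leads at 616 in controls, and the kinase genes Eif2ak3 and Eif2ak4 are at the low end at 5.95 and 3.17.

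Ratios of counts within a library do not depend on the scaling between libraries. For every 100 Atf4 counts control libraries held 13.1 ± 0.364 Ppp1r15a counts and H2O2 libraries 9.93 ± 0.163 (SD, n = 3 each), a log2 difference of -0.40. Relative to Atf4, Ddit3 (-0.17), Asns (-0.18) and Trib3 (-0.10) were lower in all 3 H2O2 libraries than in any control. Atf5 (0.11), Sesn2 (0.08) and Chac1 (0.05) were higher relative to Atf4, which itself fell by 0.12. Their own log2 fold changes were -0.01, -0.04 and -0.07, so they did not rise. Ppp1r15a relative to Ppp1r15b went from 93.0 ± 5.78 to 64.5 ± 3.08 counts per 100. Ddit3 relative to Cebpb, a bZIP partner of CHOP, went from 44.4 ± 2.28 to 35.1 ± 0.974 per 100. Of the 10 ratios computed, all 10 had groups that did not overlap, and each had an exact two-sided permutation p of 0.1, the smallest that 3 against 3 libraries allow (adjusted p = 0.1). The margin was narrow for Trib3, at 14.94 in the lowest control and 14.86 in the highest H2O2 library, and for Chac1, at 10.1 in the highest control and 10.13 in the lowest H2O2 library. These ratios were chosen after the values were seen. Atf4 itself had groups that did not overlap in CPM. How often the ratios of other tested genes to Atf4 do not overlap was not computed. The count of 10 therefore has no share over all genes beside it.

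**Figure D4:**
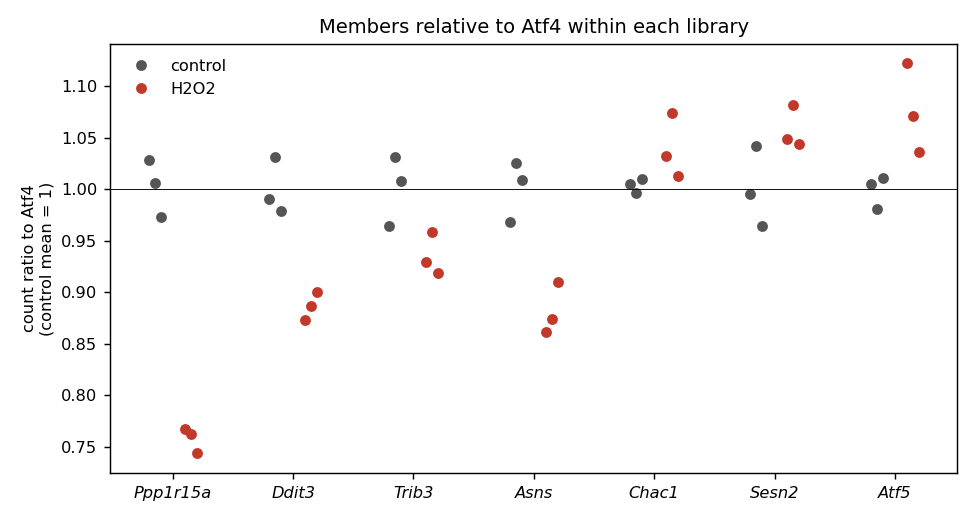
Counts of 7 members divided by the Atf4 count of the same library and set to a control mean of 1 (vertical axis, not from 0), with 1 point per library. Ppp1r15a with H2O2 lies farthest below 1. Relative to Atf4, which itself fell, Atf5, Sesn2 and Chac1 lie above their controls.

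The other genes of the pathway were read in the same fit, in 6 lists with 96 tested genes outside the members. Of these, 45 fell and 7 rose, which is 54.2% called against 20.5% of all tested genes, with a median log2 fold change of -0.08. Without H2O2 replicate 3, 44 fell and 6 rose. The lists were chosen with earlier results of these data known, and the 2 shares were not matched for abundance. Abundance bears on calls: at -0.11, Phgdh (570 CPM in controls) was called and Eif2ak4 (23.0 CPM) was not. The list of cytosolic tRNA synthetases, which charge tRNA with amino acids and are ATF4 targets, also held the tRNA exporter Xpot. This list had the lowest median (-0.21): 12 of its 13 genes fell and 0 rose. Nars fell from 836 ± 12.6 to 690 ± 11.8 CPM and Aars from 833 ± 11.1 to 696 ± 3.34 CPM (SD, n = 3 each), and the tRNA exporter Xpot (-0.05) did not pass. At an unadjusted p the list had 0 rises and 12 falls, and DESeq2's test gave 0 and 11.

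Of 18 ATF4 targets for amino acid synthesis and uptake, 11 fell and 0 rose, with a median of -0.11 (0 rises also at an unadjusted p and by DESeq2). Over fits without 1 library, 8 to 11 of them fell. Cth, the enzyme that makes cysteine from cystathionine, fell from 112 ± 5.92 to 74.9 ± 4.14 CPM, a log2 fold change of -0.57 (SE 0.0428). Slc7a11, the cystine importer, fell from 533 ± 18.9 to 447 ± 16.6 CPM (-0.25, SE 0.0315). Slc7a5 (-0.07) and Slc3a2 (-0.01), which form a transporter of large amino acids, did not pass.

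Among 13 bZIP partners and feedback regulators of ATF4, 5 fell and 0 rose (median -0.04). These were Atf3, Jun, Nfe2l2, Nupr1 and Trib1. At an unadjusted p, 1 rose and 6 fell, and DESeq2's test called 0 and 5. Atf3, a repressor induced by ATF4, fell from 69.0 ± 2.12 to 54.0 ± 2.05 CPM, and Jun, an AP-1 subunit, from 149 ± 3.00 to 126 ± 4.35 CPM. Of the C/EBP partners, Cebpb (0.05) and Cebpg (-0.02) did not pass.

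Of 13 other tested ATF4 and CHOP targets, 7 fell and 1 rose (median -0.11). Sqstm1, an autophagy receptor that is also an NRF2 target, fell from 1636 ± 30.2 to 1183 ± 23.6 CPM (-0.47), and Gadd45a, a growth arrest gene, from 27.6 ± 1.77 to 19.8 ± 1.45 CPM (-0.48). The rise was that of the lipoprotein receptor gene Vldlr (0.11). It was lost by DESeq2's test and in each fit without 1 library other than that without H2O2 replicate 2. Without control replicate 2, 4 of these genes fell in place of 7. Map1lc3b, which coats autophagosomes, stood at 0.06 without a call.

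The machinery around eIF2 moved in both directions: 4 of 20 genes rose and 4 fell (median -0.03). The falls were Eif2s2, a subunit of eIF2, Eif2b2 and Eif2b3, subunits of its exchange factor, and Impact, an inhibitor of GCN2. Impact went from 42.9 ± 0.736 to 34.8 ± 0.918 CPM (-0.30) and Eif2b3 from 60.5 ± 3.73 to 50.7 ± 2.67 CPM (-0.25). The rises were the phosphatase catalytic subunits Ppp1ca (0.10) and Ppp1cc (0.12), the PERK inhibitor Dnajc3 (0.12) and Dele1 (0.17, listed as 0610009O20Rik), which relays mitochondrial stress to HRI. Without H2O2 replicate 1, 2 of them rose in place of 4. Ppp1ca stood at 0.04 and was not called once exon length and GC content were offset.

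Of 19 tested genes of the ATF6 and IRE1 arms of the unfolded protein response, 6 fell and 2 rose (median -0.05). The chaperone gene Hspa5 fell from 2378 ± 50.1 to 1928 ± 36.7 CPM (-0.30). Sec61b, a translocon subunit, rose from 62.5 ± 1.04 to 76.5 ± 2.26 CPM (0.29), but stood at 0.10 without a call under the length and GC offset. The second rise was that of the chaperone gene Dnajb11 (0.09). Without H2O2 replicate 1, control replicate 2 or control replicate 3, 1 gene of this list rose, and without H2O2 replicate 2 this was 4. The sensor genes Ern1 (-0.16) and Atf6 (-0.10) fell, and Xbp1 (0.02) did not pass. Without H2O2 replicate 1, control replicate 2 or control replicate 3, Atf6 was not called (adjusted p = 0.13, 0.11 and 0.078).

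**Figure D5:**
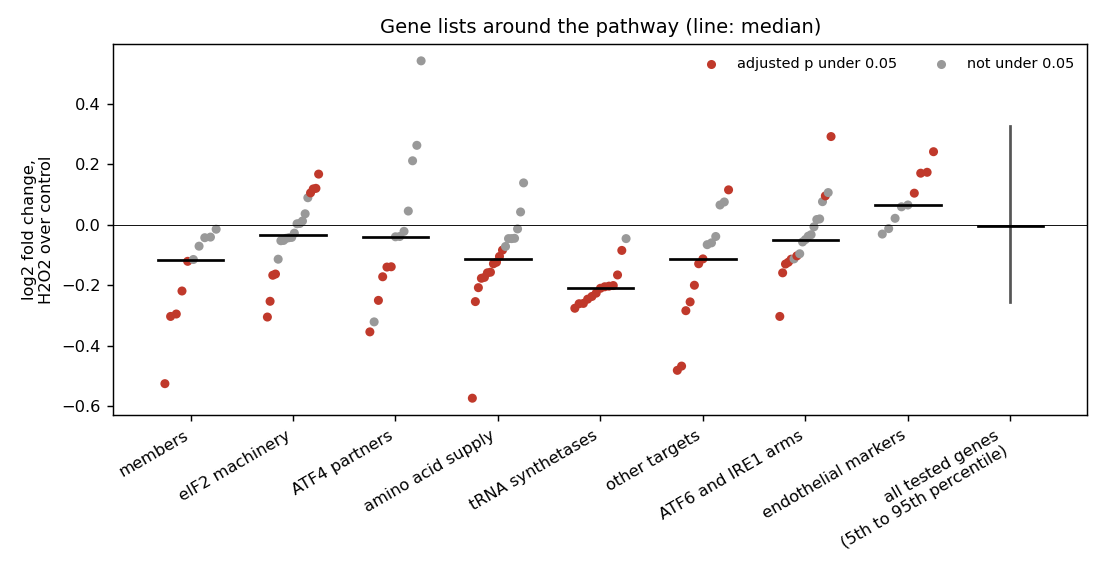
Log2 fold change (vertical axis, H2O2 over control) of each tested gene in the members, the 6 pathway lists and the endothelial markers, with a line at each median and the 5th to 95th percentile of all tested genes at the right (-0.26 to 0.33). The tRNA synthetases have the lowest median (-0.21), and the endothelial markers lie at 0.06.

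The genes whose pattern over the 6 libraries was most like that of Ppp1r15a were Supt5, Wdr1 and Gga1, with a Pearson r of log2 CPM of 0.9990, 0.9981 and 0.9973. Their changes were smaller, at -0.21, -0.13 and -0.16 on the log2 scale. The 6 points fall into the same 2 groups of libraries for every gene, and 379 of 8065 genes compared had an r of at least 0.95 with Ppp1r15a.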

How the data were processed

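RNA-seq libraries of 3 control and 3 H2O2 samples were used, each made from 100 ng of total RNA per the labels. The authors deposited raw read counts for each gene symbol in a separate table for every library. The submitters' processing notes name HTSeq, STAR 2.5.3, cutadapt, DESeq2 and bcl2fastq 2.17.1.14 and the build mm10. Annotation and strand setting are not given in the sources used here. HTSeq summary classes were left out: no feature was 4.76% to 5.46% of reads and ambiguous 3.17% to 3.30%. Not unique was 11.43% to 11.68% in controls and 11.03% to 11.13% with H2O2, without overlap.

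Genes passing filterByExpr were tested with edgeR 4.0.16 (limma 3.58.1, R 4.3.3): TMM factors, treatment as the only term, Benjamini-Hochberg adjustment over all 12924 genes. Intervals are 95% intervals of that fit, and ± gives the SD. The methods were tested on simulated data. Exon lengths and coordinates came from GENCODE M21 (same assembly as mm10; basic set, merged exons), with a length for 99.2% of tested genes. Promoters came from RefSeq's GRCm38.p6 table, which held all 10 members.

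The members and lists were chosen with earlier results of these data known. Named genes are the members, their paralogs, up to 2 genes with the smallest p per list, the most abundant marker per list and the 3 genes most like the member with the smallest p (mean log2 CPM of at least 4, standard symbol). Other names, among them every gene of counts of 5 or fewer, were chosen after their values were seen.

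Alternatives were scaling by library size only, by upper-quartile factors or by DESeq2's size factors, testing with limma-voom or DESeq2 1.42.0, no filter, a stricter filter (1 CPM in all 6 libraries), the replicate block, a loess offset (span 0.3) for length and GC content, alone and with the block, and leaving out each library.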

Additional observations from a re-analysis of the deposited data

How the results depend on the processing

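The falls of Ppp1r15a, Asns, Ddit3, Trib3 and Atf4 were called in all 16 alternatives, with highest adjusted p of 1e-09, 1.6e-05, 0.0002, 0.00069 and 0.021. Their log2 fold changes ran from -0.54 to -0.50, -0.34 to -0.27, -0.38 to -0.27, -0.25 to -0.20 and -0.16 to -0.11. Chac1 was called in 2 of the 16, the length and GC offset with and without the replicate block, where 6 members fell in place of 5. Atf5, Sesn2, Eif2ak3 and Eif2ak4 were called in none of the 16. Over fits without 1 library, genes that fell numbered 926 to 1313 in place of 1395 and genes that rose 891 to 1178 in place of 1254. In the same fits the pathway lists had 3 to 9 rises in place of 7 and 36 to 45 falls in place of 45. These fits have fewer samples.

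Libraries with the same number showed little shared deviation: the correlation of their deviations from the group means was 0.002, 0.030 and -0.026 for numbers 1, 2 and 3. The libraries of number 2 were each other's best match, and those of numbers 1 and 3 were not. These values do not decide whether libraries with the same number were prepared together. With the replicate block, 1294 genes rose, 1444 fell, and 5 members fell. In the pathway lists 7 rose and 46 fell with the block, the added gene being Eif2b1. Of the values of single genes named or listed, 1830 kept their side of the threshold, 63 lost a call and 33 gained a call, over all alternatives, and 0 reversed with a call. Eif2ak4 had the fewest counts, so its interval was the widest of the members.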
